A study of Rattus norvegicus with 12 samples.

Results

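Polysome RNA was compared with total RNA in livers of fetal Sprague Dawley rats whose dams ate freely, to describe which protein classes were well or poorly represented on polysomes of the normal fetal liver. The comparison used 3 polysome arrays and 3 total RNA arrays, 6 of the 12 arrays of the study. The other 6 arrays hold both RNA fractions from livers of dams fasted for 48 h, the study's model of intrauterine growth restriction. All livers were taken by caesarean section on day 19 of gestation, with term at day 21, and frozen in liquid nitrogen. The labels count 3 dams per feeding group and number the arrays 1 to 3. They do not say how many fetuses or preparations were combined in each polysome pool. Polysomes were separated on sucrose density gradients and their RNA was extracted with acid phenol and chloroform, whereas total RNA was isolated in guanidine thiocyanate and spun through cesium chloride. Fraction and extraction therefore changed together, and their effects cannot be told apart. The buffer and detergent used to release polysomes are not given in the sources used here.

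A polysome is a messenger RNA that carries several ribosomes at once, so a message that is being translated sediments deep in a sucrose gradient, while untranslated messages and noncoding RNA stay near the top. Messages for secreted and membrane proteins are translated at the surface of the endoplasmic reticulum (ER), and those for cytosolic, nuclear and most mitochondrial proteins on ribosomes free in the cytosol. The late fetal liver makes plasma proteins in its hepatocytes and is also a site of red cell, platelet and white cell formation.

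RNA was hybridised to Affymetrix Rat Gene 1.0 ST arrays, and the values below are log2(intensity + 1) of the deposited normalised intensities. A difference is the mean of the 3 polysome arrays minus the mean of the 3 total RNA arrays on this scale, so it is negative for a gene that was lower on polysomes. Each array was scaled to the same overall distribution, so a difference says where a gene stood relative to the other genes of its fraction and not what share of its RNA was on polysomes. Differences were tested with limma (two-sided, Benjamini-Hochberg adjusted over the 10174 genes kept of 14497 measured), and a gene is called higher or lower where the adjusted p was under 0.05. Median intensity on the 6 arrays ran from 104.26 to 108.33. Arrays of the same fraction correlated at r = 0.9914 to 0.9959 across probes, and a polysome array with a total RNA array at 0.9827 to 0.9878. The hepatocyte markers Alb, Afp and Ttr all stood above 13.5 on each of the 6 arrays.

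In fed dams 4425 genes, or 43.5% of those tested, differed between the fractions: 2451 (24.1%) were higher on polysomes and 1974 (19.4%) were lower. Most differences were modest, with a median size of 0.431 among called genes. The lower side reached further: 151 called genes were at least 2-fold lower and 64 at least 2-fold higher, and 17 were at least 3-fold lower against 6 at least 3-fold higher. The median difference over all tested genes was 0.042. The 3 polysome values lay wholly above the 3 total RNA values in 2994 of all genes tested and wholly below them in 2388, and 4269 of these genes were among the called. The count with the replicate number as a random block was 2809 higher and 2232 lower.

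Ordered by median difference, the lowest protein classes were leucine-rich proteoglycans, lysosomal proteins, complement and coagulation factors, serpins and cytochromes P450, and the highest were mitochondrial ribosomal proteins, mitochondrial import proteins, oxidative phosphorylation subunits, polyamine genes and RNA polymerase subunits. Classes are described by how many members passed the gene-wise test and by their median. Each count is to be read against the 24.1% higher and 19.4% lower, and each median against the 0.042, of all genes tested. Some genes belong to several classes. The filter kept genes whose mean over all 12 arrays was at least 6.07, so a kept gene could lie under that level in a fed group. There were 3 such members among cytochromes P450, 3 among leucine-rich proteoglycans, 3 among cytokines and chemokines and at most 2 in any other class.

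**Figure D1:**
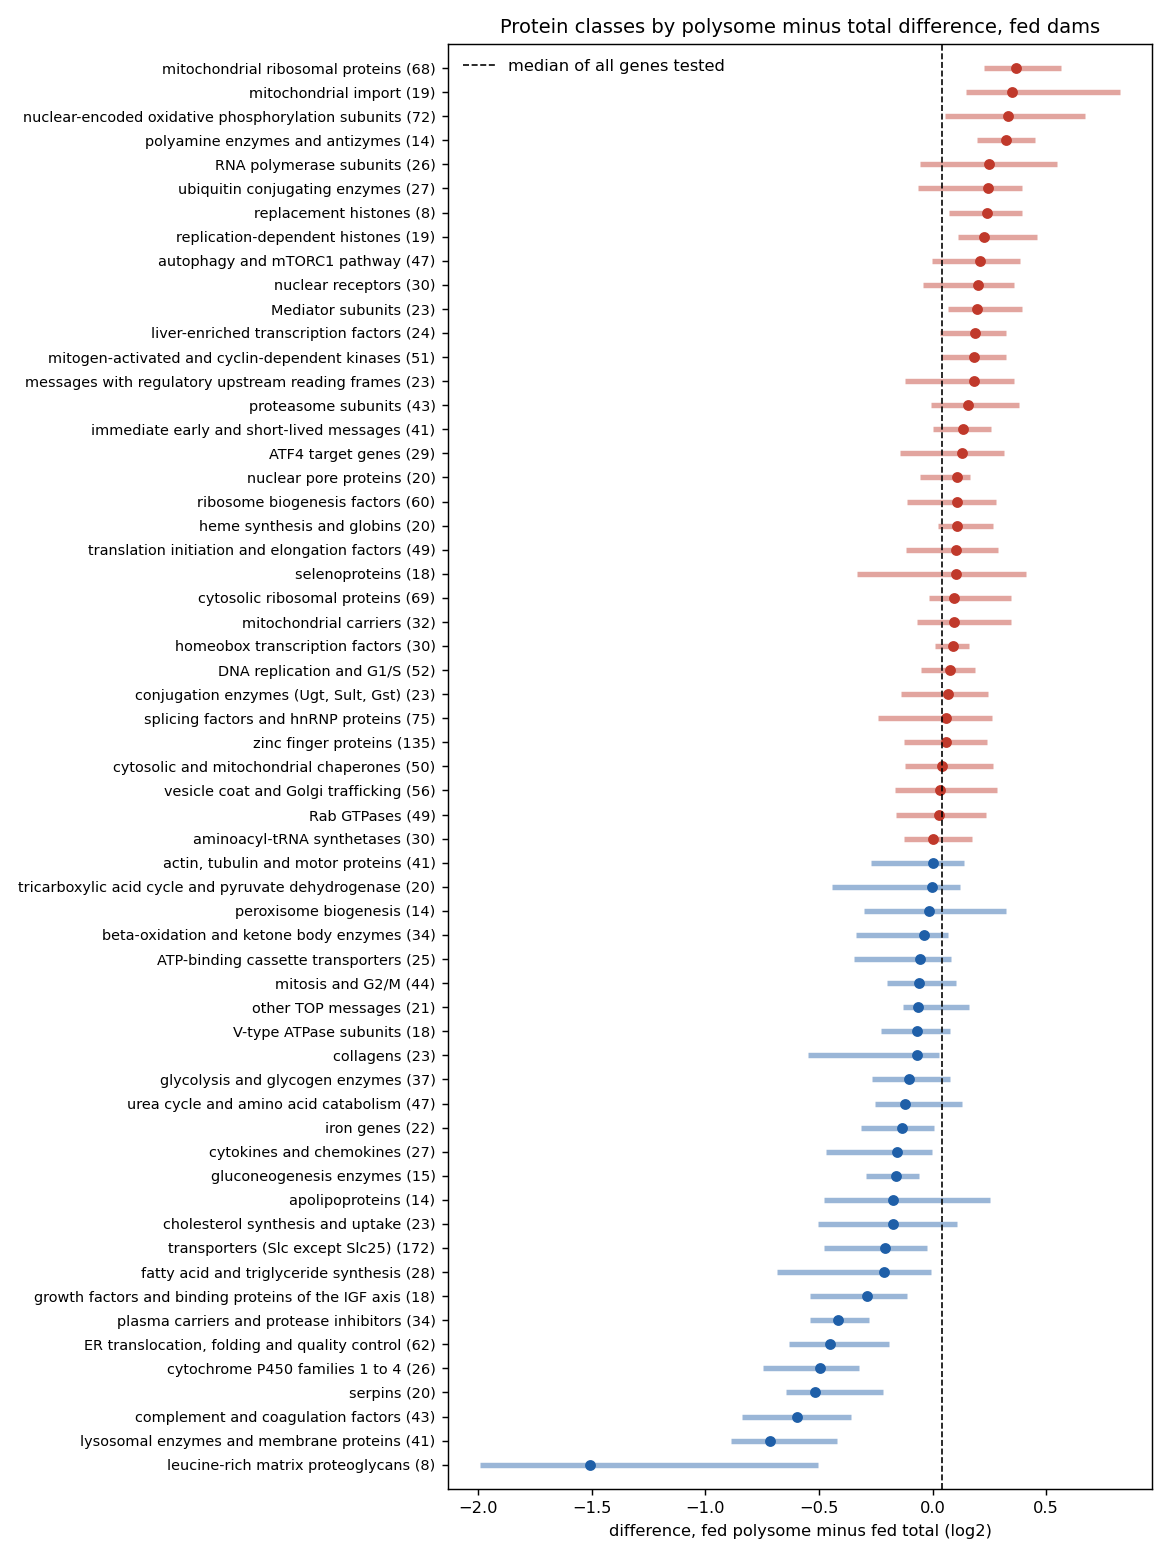
Each row is a protein class with the number of its genes tested in brackets. The point is the class's median difference (fed polysome minus fed total, log2) and the bar runs from the lower to the upper quartile of its genes, with positive medians in red and negative ones in blue. The dashed line at 0.042 is the median of all genes. Leucine-rich proteoglycans sit at -1.51 and lysosomal proteins at -0.72, and mitochondrial ribosomal proteins at 0.37.

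The largest falls were led by matrix and secreted proteins. Dcn (decorin, a collagen-binding proteoglycan) read 7.92, 7.63 and 7.96 on the polysome arrays and 10.439, 10.001 and 10.492 on the total RNA arrays. The difference was -2.47 ± 0.14 (SE, n = 3 against 3), 5.55-fold lower, with limma adjusted p = 3.2e-07, and the groups lay far apart. Ccdc107, a coiled-coil domain protein, was 4.30-fold lower, but its polysome value of 8.04 on array 2 stood below 9.53 and 9.72 on the others. Antxr1, a membrane receptor that binds collagen, read 7.004, 7.033 and 7.108 on polysomes against 8.83, 8.76 and 8.94 in total RNA, and at 7.7e-08 had the smallest adjusted p of all genes. Mmp8, the collagenase of neutrophil granules, was 3.54-fold lower. Itm2a, Enpp3 and Ccr2, which encode membrane proteins, were 3.29-fold, 3.20-fold and 3.13-fold lower. Lox, the secreted enzyme that crosslinks collagen, and Olfm4, a secreted granulocyte glycoprotein, were 3.13-fold and 3.09-fold lower.

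The largest rises included several subunits of protein complexes. Tmem256, a small membrane protein, read 9.60, 9.96 and 9.93 on polysomes and 7.96, 8.13 and 7.69 in total RNA. Its difference of 1.90 ± 0.12 (3.73-fold, limma adjusted p = 4.8e-07) was the highest of all genes. Med21, a subunit of the Mediator complex that links transcription factors to RNA polymerase II, read 8.82, 9.08 and 9.48 against 7.22, 7.42 and 7.10, a 3.68-fold rise. Crip1, a LIM domain protein, was 3.59-fold higher. Atp5mg of the ATP synthase was 3.10-fold higher and Ndufb2 of respiratory complex I 3.08-fold higher. Psmg4, a chaperone of proteasome assembly, was 3.05-fold higher, and Micos10, which shapes mitochondrial cristae, 2.81-fold higher. The calcium-binding protein S100a16 and the transcriptional coactivator Cited4 were both 2.60-fold higher, and Polr2i of RNA polymerase II 2.54-fold higher. Genes were taken among those whose groups do not overlap.

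**Figure D2:**
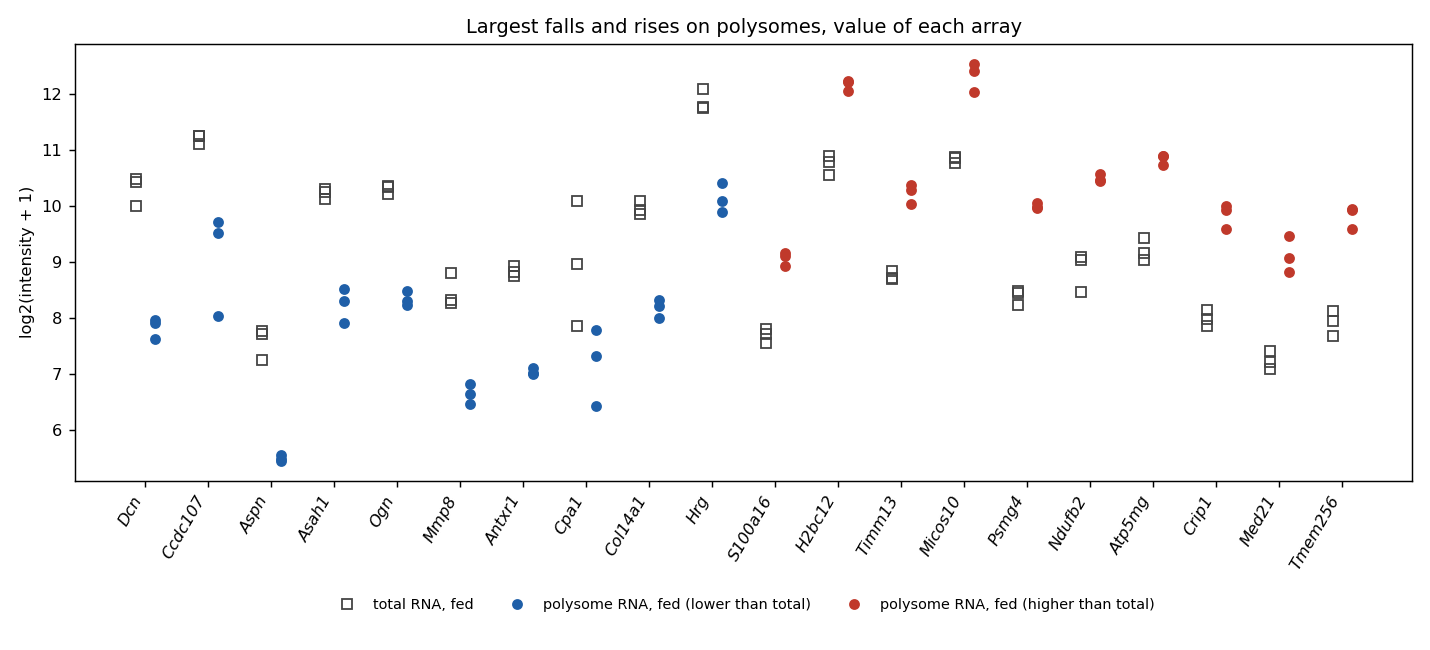
Values of each array, log2(intensity + 1), for the 10 called genes with the largest falls (left) and the 10 with the largest rises (right). Open squares are the 3 fed total RNA arrays and filled circles the 3 fed polysome arrays. The genes were taken among those whose groups do not overlap. The averages show Dcn falling from 10.31 to 7.84 on average and Tmem256 rising from 7.93 to 9.83. The Cpa1 values are the most spread within a group.

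Plasma proteins stood low on polysomes in nearly every class of them. Of 43 complement and coagulation factors tested (44 on the array), 35 were lower (81.4%, against 19.4% of all genes) and none was higher, with a median of -0.60. C9, which forms the membrane attack pore, read 8.74, 8.76 and 9.08 on polysomes and 10.41, 10.46 and 10.50 in total RNA, 3.02-fold lower (adjusted p = 1.2e-06). The mannose-binding lectin Mbl1 was 2.38-fold lower. The fibrinogen chain Fgb was lower by a smaller amount, -0.36. C1qa and C1qc, chains of the complement recognition protein, had differences of 0.00 and 0.05 that did not pass, while their partner C1qb was lower at -1.01.

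Carriers and protease inhibitors of plasma followed, with 28 of 34 lower, none higher and a median of -0.42. Hrg, a histidine-rich plasma glycoprotein, read 10.41, 9.89 and 10.09 on polysomes against 12.09, 11.78 and 11.76, 3.35-fold lower. Cp, the copper oxidase ceruloplasmin, read 9.56, 9.79 and 10.10 against 11.31, 11.32 and 11.49, 2.95-fold lower. Among the carriers with very bright probes the differences were small. Afp (alpha-fetoprotein) read 13.51, 13.57 and 13.63 against 13.80, 13.81 and 13.87, a difference of -0.26 ± 0.07 (adjusted p = 0.0065). Alb (albumin) read 13.94, 13.96 and 13.96 against 14.04, 14.09 and 14.10, and its -0.12 ± 0.06 did not pass (adjusted p = 0.11) except with trended robust priors. Ttr (transthyretin) at 0.08 ± 0.06 did not pass either. Probes this bright lie near the top of the scale, where an array can compress differences, and the part of that in these values was not tested. When all tested genes were split into 5 groups by total RNA level, the brightest group, from 10.42 up, had a median difference of -0.056, with 31.1% of its genes lower and 21.3% higher.

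Of 20 serpins, 14 were lower and 1 was higher, with a median of -0.52. Serpina3n, an acute phase inhibitor, was 2.20-fold lower, although its call was lost without fed polysome array 3 or fed total array 2, where the largest adjusted p was 0.054. Serpinh1, the collagen chaperone of the ER, was lower at -0.75. The higher member was Serpinb6a at 0.38, from the clade of serpins that mostly work inside cells, and 2 other members of that clade, Serpinb10 (-0.77) and Serpinb9 (-0.68), were lower. The call of Serpinb6a was lost without fed polysome array 2 or fed total array 3.

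Apolipoproteins divided among themselves: 5 of 14 were lower and 3 higher, with a median of -0.17. Apon was 2.12-fold lower, reading 10.13, 10.21 and 10.38 on polysomes against 11.37, 11.42 and 11.18. Apob, the very large structural protein of very low density lipoprotein, was lower at -0.56 and Apom at -0.60. Apoc4, a small apolipoprotein, read 13.12, 13.03 and 12.98 against 12.32, 12.49 and 12.16 and was 1.65-fold higher. Apoa2 (0.45) and Apoc1 (0.33), both small, were also higher, and the call of Apoc1 was lost without fed total array 3. Apoa1, the main protein of high density lipoprotein, had a difference of -0.14 ± 0.07 that did not pass, except with trended robust priors or without fed polysome array 3.

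The growth factor proteins of the insulin-like growth factor (IGF) axis were lower in 9 of 18 cases, with 1 higher and a median of -0.29. Igfbp3 and Igfbp7, which bind IGF in the circulation and in tissue, were both lower at -1.01. Igfbp1, the hepatic binding protein that rises in fasting, read 11.64, 11.87 and 12.04 on polysomes against 12.68, 12.77 and 12.43, 1.72-fold lower. Igf2, the main fetal growth factor of the axis, read 13.06, 13.05 and 13.14 against 13.16, 13.23 and 13.21, and its -0.12 ± 0.06 did not pass (adjusted p = 0.17). Irs1, the cytosolic adaptor that carries the signal of the insulin and IGF receptors, was the higher member at 0.79, with 9.36, 9.51 and 9.65 against 8.81, 8.53 and 8.82. Of 27 interleukins and chemokines of the Ccl and Cxcl series 9 were lower (33.3%) and none higher, or 7 of the 24 above the filter level in both fractions. Pf4, a chemokine listed with the platelet markers, was higher at 0.65.

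Leucine-rich proteoglycans of the matrix had the lowest median. Of 8 leucine-rich proteoglycans tested (11 on the array), 6 were lower and none higher, with a median of -1.51. Aspn read 5.46, 5.56 and 5.49 on polysomes and 7.25, 7.78 and 7.72 in total RNA (adjusted p = 9.6e-05). Its polysome values all lay under the filter level, so no fold is given. Ogn read 8.30, 8.50 and 8.24 against 10.34, 10.21 and 10.37, 3.90-fold lower. Bgn (biglycan) was 2.89-fold lower. Lum (lumican) also had a polysome mean under that level, with overlapping groups (5.64, 5.14 and 6.09 against 7.85, 6.04 and 7.42), and lost its call without fed polysome array 2, fed total array 1 or fed total array 3 and with trended robust priors, where the largest adjusted p was 0.0996. Among the 5 proteoglycans above the filter level in both fractions 4 were lower, with a median of -1.53. Collagens had a median of only -0.07, but the 9 of 23 that passed were all lower. They included Col14a1 (3.44-fold lower), Col1a2 at -0.92, Col1a1 at -0.79 and Col3a1 at -0.58.

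Lysosomal proteins were the class with the largest share of lower members. Of 41 tested, 38 were lower (92.7%, against 19.4% of all genes) and none was higher, with a median of -0.72. Asah1 (acid ceramidase) read 7.93, 8.31 and 8.53 on polysomes and 10.12, 10.31 and 10.25 in total RNA, 3.93-fold lower (adjusted p = 1.0e-06). Ppt1, which removes fatty acids from proteins, was 2.40-fold lower and Ctsl (cathepsin L, a protease) 2.35-fold lower. The members that did not pass were Ctsk at -0.17, Ctsb at -0.17 and Dnase2 at 0.06, although Ctsb did without fed total array 2. The proton pump that acidifies lysosomes gave a different picture, with 4 of 18 subunits lower and 4 higher. Its accessory subunits Atp6ap1 and Atp6ap2, which enter the ER membrane, were lower at -1.11 and -0.91. Atp6v1f, Atp6v1c1, Atp6v1g1 and Atp6v1c2, of the part of the pump that faces the cytosol, were higher at 0.82, 0.40, 0.35 and 0.32. Atp6v1a and Atp6v1d, of that same part, were lower at -0.71 and -0.46. These were all the called subunits, so none outside that part passed except Atp6ap1 and Atp6ap2. The other 10 of the 18 did not pass. Atp6v1c2 had a total RNA mean of 5.80, under the filter level. The call of Atp6v1c2 was lost in 7 of 15 alternative fits (largest adjusted p 0.17) and that of Atp6v1d without fed polysome array 3 or fed total array 2.

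The ER's own machinery was lower as a class and divided within its complexes. Of 62 proteins of ER translocation, folding and quality control, 43 were lower (69.4%) and 9 higher (14.5%, against 24.1% of all genes), with a median of -0.45. Sec61a1, the channel subunit through which nascent chains cross the membrane, read 11.76, 11.68 and 11.79 on polysomes and 12.46, 12.44 and 12.50 in total RNA, 1.65-fold lower. The small partner subunits of the same channel were higher: Sec61g read 12.39, 12.32 and 12.27 against 11.78, 11.64 and 11.32 (1.68-fold), and Sec61b had a difference of 0.29. Srp19, Srp9 and Srp14, small cytosolic proteins of the signal recognition particle, were higher at 1.00, 0.48 and 0.25. Krtcap2, Ost4 and Dad1, small subunits of the complex that attaches sugars, were higher at 0.77, 0.32 and 0.21. Without 1 of several arrays the calls of Srp14 and Dad1 were lost, with largest adjusted p of 0.074 and 0.077. Among the lower members were the disulfide isomerases Pdia5 (-1.08) and Pdia4 (-0.87), the glucosidase subunit Prkcsh (-1.04) and the translocation helper Sec63 (-0.99).

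Cytochromes P450 and solute carriers had medians below that of all genes. Of 26 cytochromes P450 of families 1 to 4, which sit in the ER membrane and oxidise drugs and lipids, 17 were lower and none higher, with a median of -0.49. Cyp2t1 was 2.78-fold lower, and Cyp2d5 and Cyp2d2 had differences of -0.95 and -0.94. Among 172 solute carriers outside mitochondria (270 on the array), 75 were lower (43.6%) and 6 higher (3.49%), with a median of -0.21. Slc10a1, the bile acid uptake carrier of hepatocytes, read 9.91, 9.51 and 9.67 on polysomes against 11.06, 10.74 and 10.96, 2.34-fold lower. Slc22a8, an organic anion transporter, was 2.26-fold lower. Slc35a4, known for a conserved upstream reading frame, was the highest member at 0.66. The mitochondrial carriers of the same superfamily had a median of 0.10, with 10 of 32 higher and 3 lower. ATP-binding cassette transporters, also membrane proteins, had 4 of 25 higher and 7 lower, and their median of -0.05 ran from -0.09 to 0.01 when arrays were left out.

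Lipid enzymes held members on both sides. Of 28 genes of fatty acid and triglyceride synthesis 13 were lower and 2 higher. The ER membrane enzymes Elovl5 (elongase, 2.22-fold lower), Elovl2 (-0.87), Scd (a desaturase, -0.93), Dgat1 (-0.81) and Fads1 (-0.67) were lower. The highest member was Acacb at 0.37, a call lost without fed polysome array 3 or fed total array 3. Fasn and Acaca, the cytosolic enzymes that build palmitate, had differences of 0.16 and 0.09 and did not pass. In cholesterol synthesis, 8 of 23 were lower and 3 higher. The ER enzymes Msmo1, Dhcr7 and Sc5d were lower at -0.96, -0.90 and -0.84, and the soluble enzymes Mvd, Pmvk and Fdps were higher at 0.38, 0.34 and 0.22. The calls of Mvd and Fdps were lost in 7 and 6 of 15 alternative fits (largest adjusted p 0.21 and 0.15), and that of Pmvk without fed polysome array 3. Of 15 genes of gluconeogenesis 5 were lower and 2 higher. The ER glucose-6-phosphate transporter Slc37a4, the ER phosphatase G6pc3 and mitochondrial Pck2 were lower at -0.69, -0.95 and -0.32, the last losing its call without fed total array 1 or 2, and cytosolic Ldha and Mdh1 were higher at 0.28 and 0.36. Of 37 glycolysis and glycogen genes, whose enzymes are mostly cytosolic, 12 were lower and 7 higher, with a median of -0.11.

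**Figure D3:**
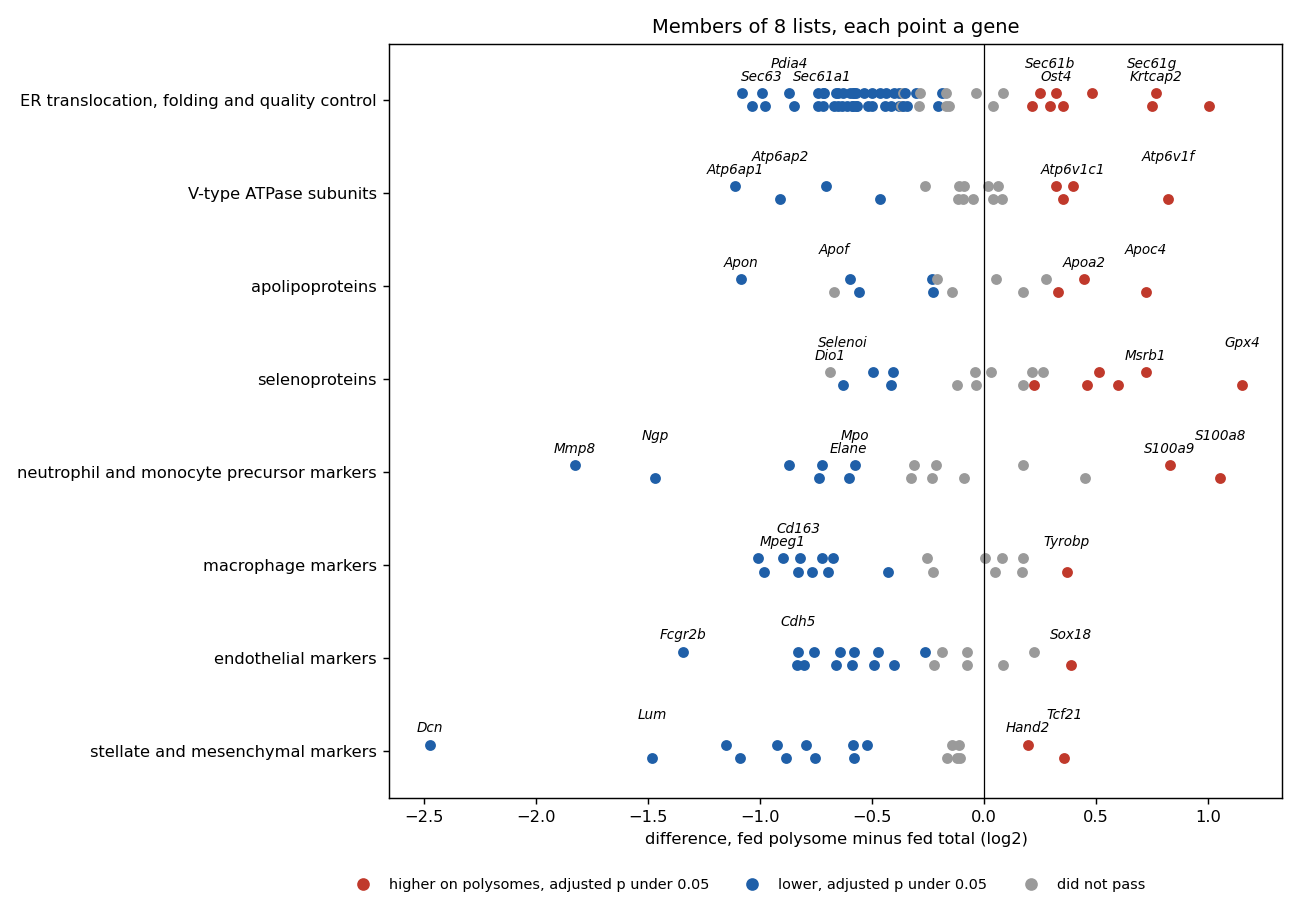
Each point is a gene of the list named at the left, placed at its difference (fed polysome minus fed total, log2), with small vertical shifts only to separate points. Red points were higher and blue points lower at adjusted p under 0.05, and grey points did not pass. In the ER list Sec61a1 lies at -0.72 and Sec61g at 0.75, and among neutrophil markers Mmp8 lies at -1.82 and S100a8 at 1.05.

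Mitochondrial classes differed among themselves. Of 68 mitochondrial ribosomal proteins, 49 were higher (72.1%, against 24.1% of all genes) and 2 lower, with a median of 0.37. Mrpl36 read 10.78, 10.87 and 10.84 on polysomes and 9.69, 9.66 and 9.42 in total RNA, 2.36-fold higher (adjusted p = 2.1e-06). Mrps16 was 2.21-fold higher and Mrpl41 had a difference of 1.04. The lower members were Mrps27 at -0.49 and Mrps22 at -0.27, the latter losing its call without fed total array 2. Of 19 import proteins 13 were higher and none lower, with a median of 0.35. Timm13, a chaperone of the intermembrane space, read 10.04, 10.30 and 10.38 against 8.72, 8.85 and 8.70, 2.79-fold higher, and Timm10b and Tomm7 were 2.10-fold and 2.06-fold higher.

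Nuclear-encoded subunits of oxidative phosphorylation were higher in 42 of 72 cases and lower in 8, with a median of 0.33. Atp5mg read 10.90, 10.89 and 10.74 on polysomes against 9.16, 9.43 and 9.04, and Ndufb2 read 10.45, 10.57 and 10.47 against 9.05, 9.10 and 8.47. Ndufb8 of complex I was 2.22-fold higher. Lower members included Uqcrb of complex III (12.31, 12.55 and 12.62 against 13.02, 13.16 and 13.16, 1.54-fold lower) and Sdha, the catalytic flavoprotein of complex II, at -0.44. Sdhb and Sdhd of that same complex II were higher at 0.74 and 0.32. The tricarboxylic acid cycle was also divided, with 4 of 20 higher and 6 lower: Suclg1 was higher at 0.89, and its partner subunits Suclg2 and Sucla2 were lower at -0.62 and -0.50. Beta-oxidation and ketone body enzymes had 10 of 34 lower and 2 higher, with Acaa2 at -0.62 and Eci1 at 0.80. No protein encoded by mitochondrial DNA was tested here.

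Several nuclear complexes had medians above that of all genes, while those of splicing factors (0.06) and zinc finger proteins (0.06) lay near it and that of mitosis genes (-0.06) below it. Of 26 RNA polymerase subunits 14 were higher and 3 lower. Polr2i read 10.13, 10.18 and 9.97 on polysomes against 8.86, 8.87 and 8.53, while Polr3g of RNA polymerase III read 7.03, 7.70 and 6.95 against 8.25, 8.37 and 8.24 and was 2.09-fold lower. Of 23 Mediator subunits 11 were higher and none lower. Histone genes whose messages end in a stem-loop in place of a poly(A) tail were higher in 11 of 19 cases and lower in none, led by H2bc12 (12.23, 12.21 and 12.07 against 10.91, 10.79 and 10.56, 2.67-fold) and H1f1 (2.27-fold). Histone genes are near-identical copies, so a probe may read several of them.

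Lists of protein turnover and of signalling kinases also had medians above that of all genes. Of 43 proteasome subunits 19 were higher and 3 lower, with Psmg4 and Psma7 (2.28-fold) at the top and the immunoproteasome subunit Psmb9 at -0.61. Of 27 ubiquitin conjugating enzymes 13 were higher and 1 lower. Autophagy and mTORC1 genes were higher in 21 of 47 cases and lower in 1, with Map1lc3a, which marks autophagosomes, 2.11-fold higher and the conjugating enzyme Atg3 lower at -0.53. Of 51 mitogen-activated and cyclin-dependent kinases 23 were higher and none lower, in a narrow range led by Map2k2 at 0.66. Dividing-cell genes did not lean to either side, with 7 of 44 mitosis genes higher and 7 lower. Within them Cdc20, the activator of the anaphase-promoting complex, was 2.02-fold lower (11.07, 10.59 and 10.36 against 11.85, 11.58 and 11.64).

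Transcription factors of the liver were higher in 9 of 24 cases and lower in 2. Foxa3 read 9.64, 9.78 and 10.14 on polysomes against 8.84, 8.75 and 9.46, 1.78-fold higher. Atf5 and Cebpa were higher at 0.74 and 0.53, the latter with an adjusted p of 0.059 without fed total array 1. Hnf4a, a central factor of hepatocytes, had a difference of -0.05 that did not pass. The lower members were Xbp1 (12.08, 11.65 and 11.63 against 12.47, 12.44 and 12.65, 1.67-fold lower) and Creb3l3 (-0.56). The message of Xbp1 is spliced at the ER membrane and Creb3l3 is made as a membrane protein, and whether this bears on their differences was not tested. Of 30 nuclear receptors 13 were higher and none lower, led by the thyroid hormone receptor Thra at 0.76.

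The translation machinery had medians close to that of all genes. Of 69 cytosolic ribosomal proteins 25 were higher (36.2%, against 24.1%) and 9 lower, with a median of 0.10. Messages of this class are known to begin with a C followed by a run of pyrimidines, the TOP motif through which mTORC1 controls their entry into polysomes. The members were far apart. Rps3 read 13.31, 13.30 and 13.38 on polysomes against 12.38, 12.29 and 12.23, 2.04-fold higher, and Rps14 read 11.79, 11.86 and 11.89 against 10.86, 10.92 and 10.78, 1.99-fold higher. Rpl24 was 2.04-fold higher by its brightest probe, while its other probe gave 0.32. Rpl7 read 12.25, 12.07 and 12.01 against 12.58, 12.60 and 12.56, 1.39-fold lower, and Rplp1 was 1.36-fold lower. Rps6 had a difference of -0.02 ± 0.06 and Rpl3 one of -0.11 ± 0.07, and neither passed. Ribosomal protein genes have many processed copies in the genome, so their probes may be read by more than the named message.

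**Figure D4:**
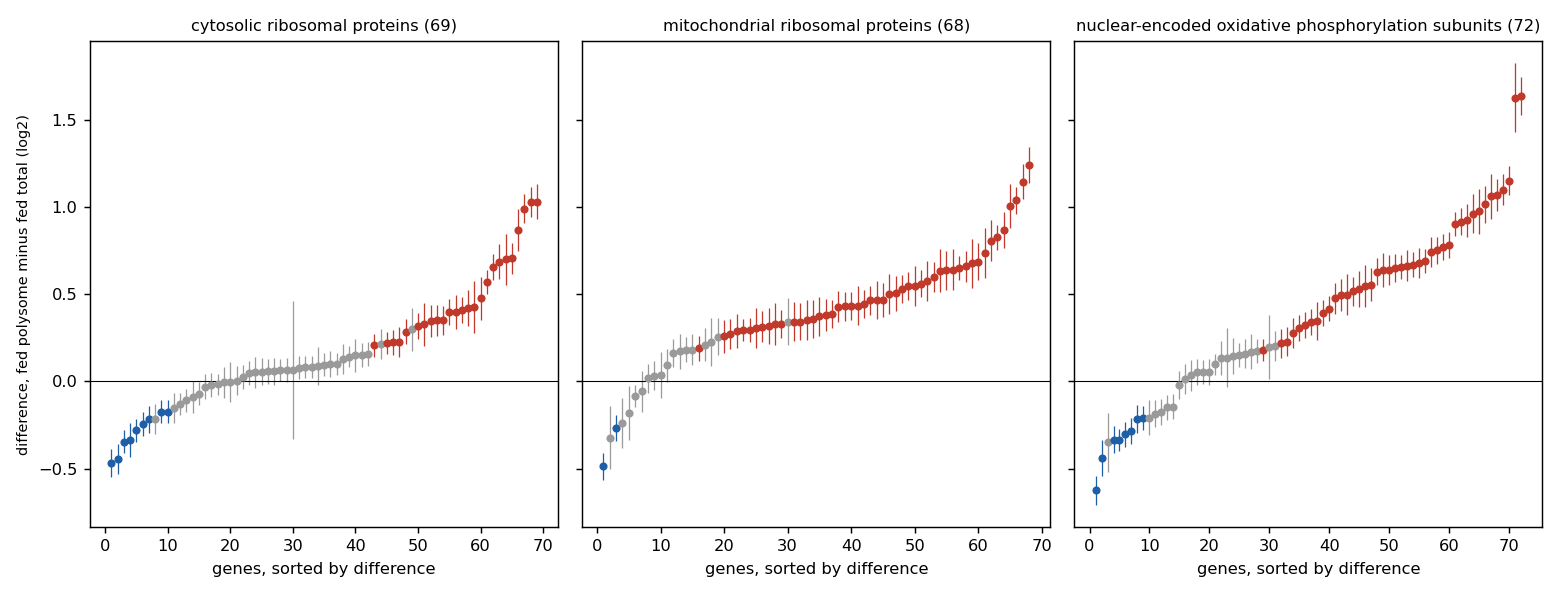
Genes of 3 classes sorted by difference (fed polysome minus fed total, log2), each with its standard error from the limma fit. Red points were higher and blue points lower at adjusted p under 0.05, and grey points did not pass. Cytosolic ribosomal proteins run from -0.47 to 1.03, mitochondrial ribosomal proteins from -0.49 to 1.24 and oxidative phosphorylation subunits from -0.62 to 1.63.

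The annotated starts of ribosomal protein genes are shown because the TOP motif is looked for there and the genes differ in direction. RefSeq promoters of assembly GRCr8 gave a sequence for 58 of the 69 genes. Each line gives 30 bases, 15 before the annotated start and 15 from the start on, written 5′ to 3′ on the gene's strand. Capitals mark the longest run of a C followed by at least 4 pyrimidines (C or T) that begins within 10 bases of the start. Only the part that begins there is marked, so in Rpl29 the pyrimidines also extend before the capitals. The Fau run reaches the end of its line, where marking stops. The lines list the 4 genes that were furthest down among those with such a run, then the 4 furthest up.

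Rplp1 (chr8:71290858-71290887, minus strand): gcaggcgcatgtgatCCTTTCCTCagctgc
Rps3a (chr2:173827028-173827057, minus strand): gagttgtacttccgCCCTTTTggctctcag
Rpl29 (chr8:115947628-115947657, plus strand): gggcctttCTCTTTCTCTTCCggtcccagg
Rps4x (chrX:71342907-71342936, minus strand): tccagcgcgcgcagCCTCCgaccctaattt
Rps14 (chr18:56498245-56498274, plus strand): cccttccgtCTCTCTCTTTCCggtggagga
Fau (chr1:212779498-212779527, plus strand): ggacgtgcgcgcccccgCTCCTTCCTCTTT
Rps27 (chr2:177964592-177964621, minus strand): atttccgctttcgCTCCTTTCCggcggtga
Rpl13 (chr19:68062499-68062528, plus strand): ctttgcggtgcccgatCCTTTCCgctcggc

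Every gene shown was chosen for having a run. Rplp1, Rps3a, Rpl29 and Rps4x had differences of -0.45, -0.35, -0.34 and -0.28, and Rps14, Fau, Rps27 and Rpl13 had differences of 0.99, 0.87, 0.70 and 0.69. Rpl24 (1.03) and Rps3 (1.03), the highest of the class, had no such run within 10 bases of the start and are not shown. Rpl29 has 5 dimmer probes that ran from -0.29 to 0.34, and its call was lost when probes were averaged (-0.05) or without fed polysome array 2. Rpl13 has 5 dimmer probes that ran from -1.33 to 1.37, and averaging gave 0.47. Rps27 had a total RNA mean of 5.77, under the filter level, against a polysome mean of 6.47. The annotated start base was a C followed by at least 4 pyrimidines in 23 of 58 ribosomal protein genes (39.7%). The same held for 2.62% of all 27457 promoters in the RefSeq table. Such a match could lie inside a run that began before the start, as in Rps14, Rps3a and Rps27. Within 10 bases of the start a match was found in 44 of 58 (75.9%) and in 28.8% of all promoters. Ribosomal protein genes with a match at the start base had a median difference of 0.08 and those without it 0.13. The search was on the gene's own strand, and a match describes the letters in the window only.

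Other TOP messages showed no common direction, with 5 of 21 higher and 5 lower. Tpt1, a classical TOP message, read 12.78, 12.64 and 12.73 on polysomes against 13.16, 13.19 and 13.18, 1.38-fold lower. Eef1a1 (-0.07 ± 0.07) and Eef2 (0.16 ± 0.07), the elongation factors, did not pass. Eef2 did with the replicate number as a random block (adjusted p = 0.046), with arrays centred on their median and with trended robust priors. Of 49 initiation and elongation factors 18 were higher and 5 lower. Eif1b was 1.63-fold higher, and Eif2s1, the subunit of eIF2 that is phosphorylated under stress, read 11.07, 11.04 and 10.90 against 11.80, 11.89 and 11.99 and was 1.85-fold lower. Of 30 aminoacyl-tRNA synthetases 2 were higher and 5 lower.

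Messages known for translational control gave mixed results. The polyamine genes were higher in 8 of 14 cases and lower in none, with a median of 0.32. Oaz1, the antizyme made by ribosomal frameshifting, read between 11.97 and 12.02 on the 3 polysome arrays against 11.65, 11.51 and 11.42, 1.39-fold higher. Dohh, which completes the hypusine of eIF5A, was 1.86-fold higher. Odc1 (0.18 ± 0.08) and Amd1 (0.24 ± 0.10), the rate-limiting enzymes, did not pass. Amd1 did with the replicate number as a random block (adjusted p = 0.041) or as a fixed block, and without fed polysome array 1.

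Among messages with regulatory upstream reading frames 9 of 23 were higher and 3 lower. Atf5 read 9.68, 9.73 and 9.98 against 8.79, 9.05 and 9.31, 1.67-fold higher. Ppp1r15a was higher at 0.37. Atf4, the transcription factor of the integrated stress response, read 10.78, 10.96 and 11.25 against 10.67, 10.62 and 10.74. Its difference of 0.32 ± 0.11 passed (adjusted p = 0.038) but was lost in 7 of 15 alternative fits, including those without fed polysome array 2 or 3 or any of the total RNA arrays, with a largest adjusted p of 0.17. Ddit3 had a difference of 0.03.

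Iron genes were lower in 9 of 22 cases and higher in 2. Fth1 (ferritin heavy chain), whose iron-responsive element holds its message off ribosomes when iron is scarce, read 13.36, 13.42 and 13.32 on polysomes against 13.67, 13.69 and 13.71, 1.25-fold lower. Ftl1 (ferritin light chain), with the same kind of element, had a difference of -0.03 by its brightest probe and -0.01 to 0.15 by its other 4 probes above the filter level. Alas2, the erythroid heme enzyme with such an element, read 13.14, 13.20 and 13.16 against 13.20, 13.15 and 13.13, a difference of 0.01 ± 0.06. Epas1, which also carries one, was higher at 0.33. Slc40a1, the iron exporter, carries one too and is a membrane protein: it read 11.49, 11.50 and 11.41 against 12.30, 12.40 and 12.45, 1.89-fold lower. Tfrc, the transferrin receptor, was lower at -0.47.

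Selenoproteins were higher in 6 of 18 cases and lower in 4. The cytosolic and mitochondrial Gpx4 (10.40, 10.14 and 10.17 against 9.28, 9.11 and 8.86, 2.22-fold), Msrb1 (1.65-fold), Selenow (0.52) and Gpx1 (0.46) were higher. Selenom and Selenof, which reside in the ER, were also higher at 0.60 and 0.23. The ER membrane proteins Selenoi, Selenos and Selenok were lower at -0.63, -0.41 and -0.41, as was the secreted Gpx3 at -0.50. The call of Gpx3 was lost without fed polysome array 2 or 3 or fed total array 1, and that of Selenof without each of 4 arrays in turn (largest adjusted p 0.070 and 0.075). Secreted Selenop had a difference of -0.12 that did not pass.

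Marker lists of most cell types other than the erythroid lineage had lower sums on polysomes. Hepatocyte markers summed to 126602 to 138739 intensity units on the polysome arrays and 143323 to 147936 on the total RNA arrays (8 of 15 lower, 1 higher). Erythroid markers summed to 108466 to 113629 and 104265 to 110004 (8 of 20 higher, 3 lower). These ranges overlap, and within each numbered pair of arrays the polysome sum was the higher. The sums were 13203 to 13654 and 17301 to 17974 for macrophage markers (10 of 18 lower, 1 higher), and 7746 to 8326 and 11210 to 12295 for endothelial markers (13 of 20 lower, 1 higher). Mesenchymal markers gave 9987 to 10255 and 14324 to 15294 (11 of 18 lower, 2 higher), and neutrophil markers 12600 to 14497 and 15672 to 19603 (7 of 16 lower, 2 higher). Megakaryocyte markers gave 7167 to 7877 and 8902 to 9755 (6 of 10 lower, 1 higher), and B lymphoid precursor markers 1727 to 1803 and 2127 to 2308 (4 of 9 lower, none higher). No marker stood at 0, since the lowest value in the deposited table is 3.62 intensity units. A lower sum on polysomes is a difference between RNA fractions of bulk liver and is not a count of cells. The part of cell composition in the class differences above was not tested.

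Within several of these lists the members went both ways. In neutrophil precursors S100a8, a cytosolic calcium-binding protein, read 8.10, 8.93 and 9.19 on polysomes against 7.40, 7.85 and 7.79, 2.08-fold higher, and its partner S100a9 was 1.78-fold higher. The granule proteins Ngp (9.77, 9.93 and 10.28 against 11.44, 11.24 and 11.71, 2.77-fold lower), Elane (-0.60) and Mpo (-0.58) were lower on the same arrays. The call of Elane was lost without fed total array 2 (adjusted p = 0.059). In endothelium the transcription factor Sox18 was higher at 0.39, and the surface receptor Fcgr2b (8.41, 8.19 and 8.33 against 9.78, 9.27 and 9.89) was 2.54-fold lower. In mesenchyme the transcription factors Tcf21 and Hand2 were higher at 0.36 and 0.20, and the receptors Pdgfrb and Pdgfra were lower at -1.15 and -1.09. The calls of Tcf21 and Hand2 were each lost without several arrays (largest adjusted p 0.13 and 0.087). Macrophage Tyrobp, a small signalling adaptor in the membrane, was higher at 0.37, and the receptor Cd163 was lower at -0.83. Platelet Pf4, a small secreted chemokine, was higher at 0.65, and the surface receptors Gp1ba and Itgb3 were lower at -0.72 and -0.61. In erythroid cells the globin Hbg1 was 2.32-fold higher and the membrane proteins Tfrc, Rhag and Rhd were lower at -0.47, -0.40 and -0.29. The globin Hbb was higher by only 0.17, a call lost in 10 of 15 alternative fits. Globin genes resemble each other, so a probe may read several.

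Noncoding RNAs, which are not translated, did not all stand low. Rpph1, the RNA of ribonuclease P, read 10.67, 10.56 and 11.07 on polysomes against 12.27, 12.13 and 11.88, 2.51-fold lower. H19, the imprinted noncoding RNA abundant in fetal liver, read 13.11, 13.09 and 13.03 against 13.81, 13.78 and 13.87, 1.67-fold lower by its brightest probe. Its other probe, nearly as bright, gave a smaller difference of -0.47. Terc, the RNA of telomerase, read 9.09, 8.75 and 9.12 against 8.57, 8.08 and 8.31 and was 1.58-fold higher. Meg3 at 0.37 did not pass (adjusted p = 0.076). It did in 5 of 15 alternative fits, among them the replicate number as a random block (adjusted p = 0.046). Snhg11 at -0.26 passed only with the replicate number as a fixed block (adjusted p = 0.029).

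Livers of fasted dams gave 6 other arrays for the same contrast. They were fitted together with the fed arrays, so both sets of calls share an estimate of the spread. In fasted dams 4446 genes (43.7%) differed between fractions. Of the 4425 genes called in fed dams, 4352 (98.4%) had the same sign in fasted dams and 3458 were also called there in that direction. Across the 10174 genes the differences in fed and fasted dams correlated at r = 0.906, a description over genes that share arrays within each set. Lysosomal proteins had medians of -0.72 in both sets, complement and coagulation factors -0.60 in both, and mitochondrial ribosomal proteins 0.37 in fed and 0.52 in fasted dams. Leucine-rich proteoglycans went from -1.51 in fed to -1.04 in fasted dams. Some medians differed in sign, from -0.36 in fed to 0.08 in fasted dams for B lymphoid precursor markers, from -0.49 to 0.18 for exocrine pancreas markers and from 0.13 to -0.03 for ATF4 target genes, and these list differences were not tested. No gene passed the test of the difference between the fed and fasted contrasts (limma, smallest adjusted p = 0.86), and 549 had an unadjusted p under 0.05. With the replicate number as a random block 0 genes passed, and with it as a fixed block 1 did, Cpa1 (adjusted p = 0.0192).

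**Figure D5:**
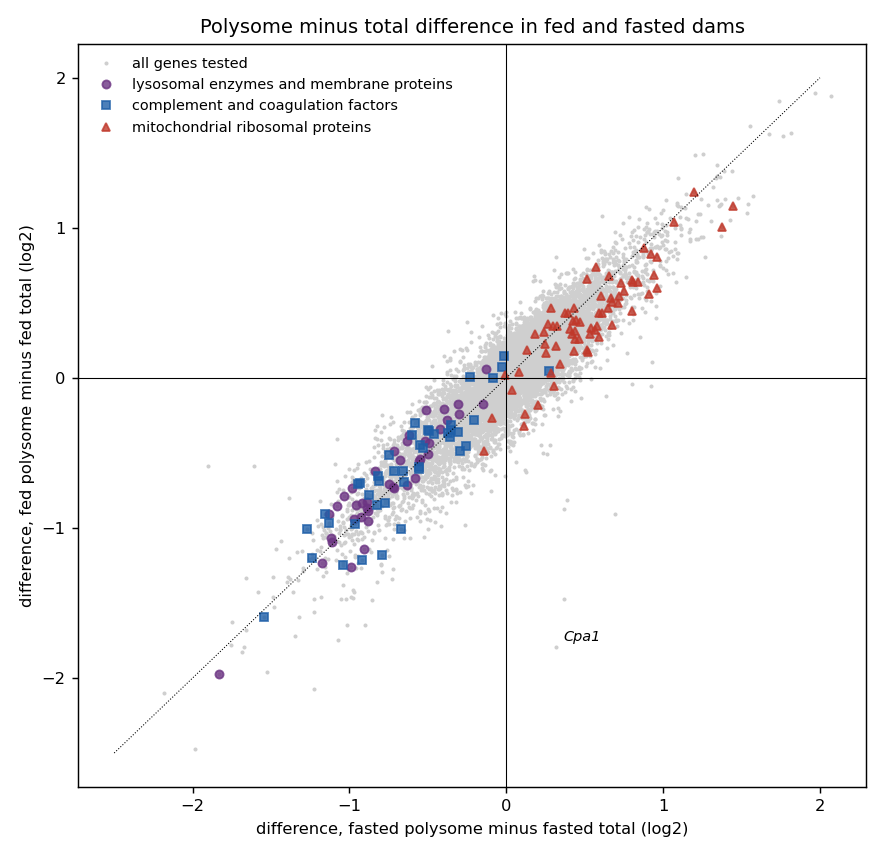
Each point is a gene, with its polysome minus total difference (log2) in fasted dams on the horizontal axis and in fed dams on the vertical axis, and the dotted line marks equal values. Lysosomal proteins and complement and coagulation factors lie mostly at the lower left and mitochondrial ribosomal proteins at the upper right. Across all genes r was 0.906, and Cpa1 lies far below the line.

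Cpa1, a digestive enzyme of the exocrine pancreas, had the same signs as its marker list, whose median was -0.49 in fed and 0.18 in fasted dams. It read 7.79, 6.44 and 7.33 on the fed polysome arrays and 10.10, 7.87 and 8.98 on the fed total RNA arrays, 3.46-fold lower (adjusted p = 0.0046), while its difference in fasted dams was 0.32 and did not pass. The 12 exocrine pancreas markers tested summed to 4467, 1331 and 2040 intensity units on the fed total RNA arrays and 1515, 1061 and 1370 on the polysome arrays. The total RNA array with the highest Cpa1 value also had the highest sum. Cpa1 is itself among the 12 markers, so each sum and the list's median contain it and are not independent of it. Of the 12 markers 3 were lower and none higher. The part of pancreas RNA in the Cpa1 difference was not tested.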

How the data were processed

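RNA of fetal rat liver was profiled on 12 Affymetrix Rat Gene 1.0 ST arrays in 4 groups of 3. The authors deposited normalised intensity values on a linear scale, and the submitters' processing notes name RMA, without a version. This method gives all arrays a like distribution, so a change common to all genes of a fraction is not visible. The number of arrays limits the precision. The platform annotation listed exactly 1 gene symbol for 15209 of 28826 probes, several for 306 and none for 13311. Of the 15209 probes, 15178 were matched to a current gene name through Entrez ID. The brightest probe over all arrays stood for each of 14497 genes (494 had several probes). Genes whose mean log2(value + 1) was at or above the 40th percentile of all probes (6.07) were kept: 10174, with 4323 left out.

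limma 3.58.1 in R 4.3.3 was fitted to the 4 groups over all 12 arrays, which share an estimate of the spread (8 residual and 5.16 prior degrees of freedom, median standard error 0.095). P-values were adjusted by Benjamini-Hochberg over all 10174 genes. On simulated data of 10174 genes for the fed comparison, 50 genes were changed at each size. The fit recovered 20% of those changed 1.2-fold, 86% at 1.5-fold, 98% at 2-fold and 98% at 3-fold, and called 0.0902% of unchanged genes. Far fewer genes were changed there than the 43.5% called in the real fed comparison. An adjusted p under 0.05 then needs a smaller unadjusted p, so these shares do not carry over to the real data. The median of all genes moved from 0.042 to 0.07 when arrays were centred on their medians, and the higher share of calls from 55.4% to 60.5%.

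Fed polysome and fed total arrays of the same number deviated together (r = 0.32, 0.36 and 0.35 across genes, against -0.22 to -0.11 for other pairs). Deviations were taken from a group mean and cancel out within a group, so positive values for same-numbered pairs force negative ones among the others. The block fits took the numbers to pair the arrays, from the data and not from a statement in the labels. The main fit, which gave the standard errors and calls above, did not use the pairing. The labels call the replicates biological and count 3 dams per feeding group, without tying an array to a dam.

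The members and gene lists were chosen with earlier results of these data known. Genes were named by rule: the 15 largest rises and falls among called genes without overlap between groups, up to 3 members per list in the direction of its median and 2 against it, and a fixed set of translation and liver genes. Other members named here were chosen after their values were seen. Of the fixed set, Pabpc1 is not reported. Lists of cholangiocyte, mesothelial, mast cell, zinc finger, homeobox, splicing, olfactory receptor and other genes were described in the same way. Promoter windows came from RefSeq (GRCr8). Figures were drawn with matplotlib 3.10.9 in Python 3.11.15.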

Additional observations from a re-analysis of the deposited data

How the results depend on the processing

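The counts of called genes in fed dams stayed within 1.5 times the main 4425 under every alternative run: array centring, quantile scaling, averaging the probes of a gene, no filter, no pseudocount, only the arrays compared, trended robust priors, the replicate block and leaving out each array. With the replicate number as a random block (consensus correlation 0.228) 2809 genes were higher and 2232 lower. With it as a fixed block, 1 gene, Cpa1, passed the test of the difference between fed and fasted dams (adjusted p = 0.0192), where 0 passed without it. Leaving out an array of the fed groups gave 1937 to 2452 higher and 1692 to 1861 lower genes. Of 358 called genes that were picked by the naming rule or named in the text, not all of them described here, 312 passed in all 15 alternative fits. Of the rest, 46 lost the call in at least 1 fit, 45 of them when an array was left out. Pex6 and Slc25a24 reversed when a gene's probes were averaged, to 0.066 and -0.018, because their other probes gave 0.46 and -0.48. In an alternative chosen after seeing the data, lists were limited to members above the filter level in both fed groups, which moved no list median by more than the spread between replicates. The share of ribosomal protein genes with a pyrimidine run was 39.7% at the start base and 75.9% within 10 bases of it. The planned description by protein length was not run, since no protein sequences were used here. Whether protein size goes with the difference was therefore not tested, including for the members called small above. Groups of 3 arrays limit the detection of changes near 1.2-fold.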

Other observations

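Further families were listed after the values had been seen, so they are descriptions only. Surface proteins named as CD antigens were lower in 30 of 45 cases and higher in 1, with a median of -0.52, and integrins were lower in 9 of 14 and higher in none. ADAM and MMP proteases were lower in 14 of 28 cases and higher in none. Protein disulfide enzymes and prolyl hydroxylases of the ER, listed together, were lower in 6 of 8 cases, with the lysyl hydroxylase Plod3 at -0.95. Proteins named Tmem had a median of -0.02, with 17 of 116 higher and 29 lower, from Tmem41b at -0.94 to Tmem256 at 1.90. F-box proteins, which choose substrates for ubiquitin ligases, were higher in 18 of 43 cases and lower in 2. Protein phosphatase subunits were higher in 17 of 49 cases and lower in 4.

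Of all genes tested, 24.1% were higher and 19.4% lower. Splicing factors were higher in 21 of 75 cases and lower in 20, with the small ring proteins Lsm7, Snrpd1 and Lsm6 at 1.02, 0.95 and 0.94 and Srsf4 and Prpf39 at -0.87 and -0.84. Zinc finger proteins were higher in 30 of 135 cases and lower in 18. Small GTPases of the Rab family were higher in 11 of 49 cases and lower in 6. Homeobox factors were higher in 5 of 30 cases and lower in 1. Olfactory and vomeronasal receptors, which the liver is not known to use, had 22 of 1237 genes above the filter, with none higher and 1, Or2ak5, lower at -0.38, a call lost in 7 of 15 alternative fits. Cholangiocyte markers were lower in 4 of 9 cases and mesothelial markers in 3 of 6, with none higher in either, and 1 of 4 mast cell markers was lower.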
